A study of Rattus norvegicus with 6 samples.

Results

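Complement components and their regulators were examined in PC12 cells, a rat pheochromocytoma line, as 9 genes named by symbol: C1r, C1s, C3, C5, Cfb, Serping1, Cd55, Cd59 and Clu. A row of the deposited count table was taken when its symbol equalled a listed name, which gave 8 rows of 20609, and 5 of these 8 had enough counts for a test. The symbol C5 had no matching row. Poly-A RNA was sequenced in 3 control libraries, from cells given a control plasmid, and 3 libraries from cells given a plasmid for PCBP-1 overexpression (PCBP1-OE). The expressed protein carried an EGFP tag. The cells were transfected with Lipofectamine-2000, and a time of harvest is named in the methods for RT-qPCR alone. Elsewhere the paper describes the overexpression as stable or constitutive, and which form the sequenced cells had is not stated.

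Complement is a cascade of plasma and membrane proteins that marks and lyses targets. The proteases C1r and C1s start the classical pathway, C3 is the component at which all routes meet, Cfb supplies the protease of the alternative pathway, and C5 opens the terminal, pore-forming steps. Serping1, Cd55, Cd59 and Clu hold the cascade back at successive steps. Plasma complement comes mainly from liver, while neurons, glia and fibroblast-like cells also transcribe several of these genes, and complement is studied in brain for its part in synapse removal and inflammation.

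In PCBP1-OE, C3, Clu and C1r were lower than in controls, each by less than 2-fold, and no member was called higher. C1s and Cfb did not pass the test, and the transcripts of Serping1, Cd55 and Cd59 were at 4 counts or fewer in every library. By edgeR's quasi-likelihood test with an adjusted p (FDR) of 0.05 or less, 3 of the 5 tested members were called, all lower, where 9.45% of 12624 tested genes were called in either direction and 5% were called lower. With a change of at least 2-fold required as well, the cut-off for DEGs, 0 members were called, against 0.19% of all tested genes. An unadjusted p under 0.05 was found for 4 of the 5, a share not counted over all tested genes. In 4 of the 5, every PCBP1-OE library lay below every control, as did 16.5% of all tested genes. The count of 3 called members was 0 without control replicate 1 or 2 or PCBP1-OE replicate 1 or 2, 1 without PCBP1-OE replicate 3 and 3 without control replicate 3. The median log2 fold change of the 5 was -0.26, beside 0.0029 over all tested genes.

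Libraries held 19730209 to 22315623 counts on genes. Levels below are CPM, counts scaled to library size with TMM factors, and fold changes are PCBP1-OE against control on the log2 scale with a standard error (SE). CPM is not divided by transcript length here, so levels are compared between libraries and not between genes. Of the rows used here, 0 had the symbol Pcbp1, so the targeted gene is not analysed here. The labelled cell type was checked on chromaffin markers. Th, tyrosine hydroxylase, was at 6.85 to 8.86 CPM and Slc18a1 at 17 to 28 counts. But Dbh, Ddc, Chga, Chgb and Phox2a were at 0 to 9 counts a library, so most defining markers were near 0. Pdgfra, a receptor of fibroblast-like and glial progenitor cells, was at 195.2 to 225.6 CPM. The leukocyte gene Ptprc was at 0 to 3 counts and the hepatocyte gene Alb at 0 to 6 counts, but neither list was near 0 throughout. In the leukocyte list Cd68, Cd3e and Lyz2 had means of 3.21, 3.16 and 1.01 CPM, and Csf1r was at 1 to 4 counts. In the hepatocyte list Serpina1, Apoa1 and Ttr had means of 8.11, 2.19 and 1.69 CPM, and Fga was at 0 to 4 counts.

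**Figure D1:**
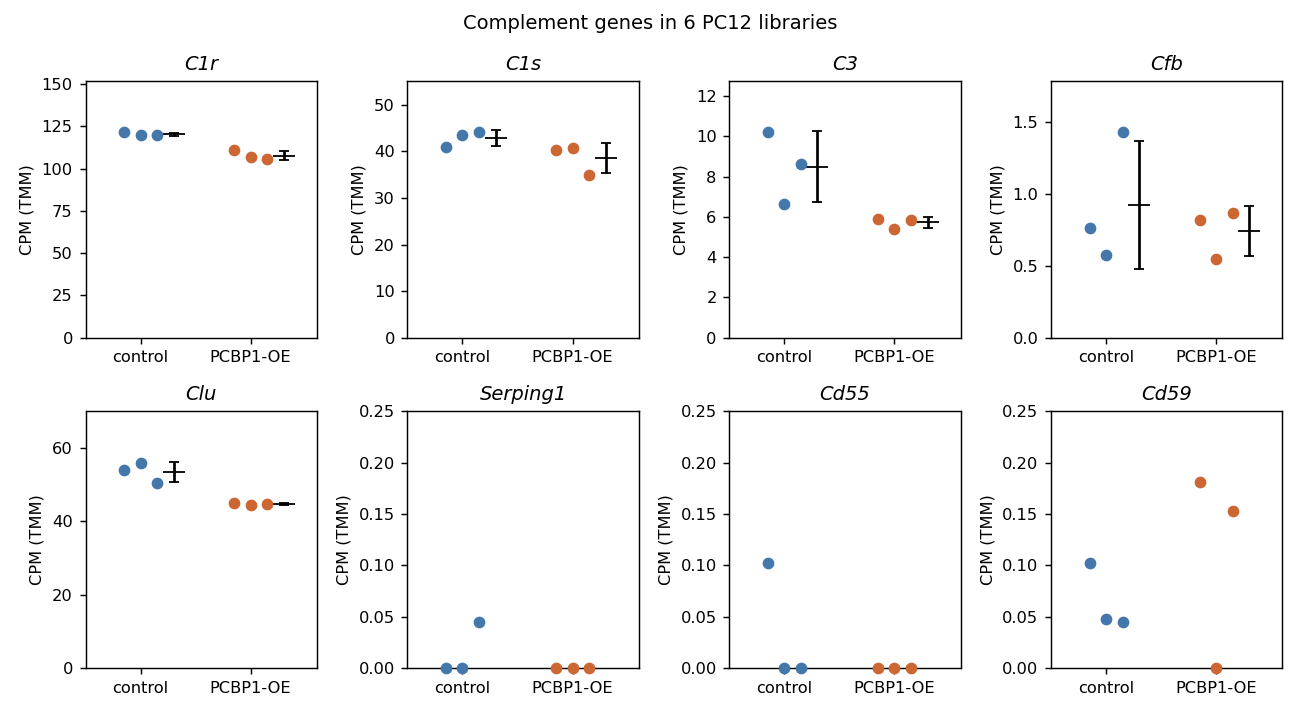
Level in CPM, scaled by TMM (vertical axes from 0, one scale per gene), of the 8 matched complement genes in 3 control and 3 PCBP1-OE libraries. Points are libraries, and the black bar is the mean ± SD of 3 libraries for the 5 tested genes; C1r, C1s, C3 and Clu show all PCBP1-OE points below the control points, Cfb overlaps, and Serping1, Cd55 and Cd59 lie under 0.2 CPM.

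C1r and C1s encode the serine proteases carried by the recognition protein C1q, with C1r cleaving C1s and C1s cleaving C4 and C2. C1r (ENSRNOG00000011796, chromosome 4) was counted 2381, 2500 and 2691 times in the control libraries, against 2440, 2154 and 2066 times under PCBP1-OE. Scaled to CPM, the controls were at 121.4, 119.8 and 120, against 110.7, 106.8 and 105.5 for the PCBP1-OE libraries. The groups did not overlap, and the controls lay within a narrow band. C1r fell by 10.6%, from 120.4 ± 0.897 to 107.7 ± 2.74 CPM (SD, n = 3 each), or by a log2 fold change of -0.16 (SE 0.042, adjusted p = 0.0345 by the edgeR test). C1r no longer passed without control replicate 1 (0.160) or 2 (0.178), without PCBP1-OE replicate 1 (0.118), 2 (0.123) or 3 (0.135), or with upper-quartile scaling (0.0533), in a range of 0.0170 to 0.178 over 14 alternatives.

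C1s (ENSRNOG00000011971, chromosome 4) was counted 804, 910 and 989 times in the control libraries, against 887, 821 and 683 times under PCBP1-OE. As CPM the controls were at 41, 43.6 and 44.1 and the PCBP1-OE libraries at 40.3, 40.7 and 34.9. The groups did not overlap, but 0.31 CPM separated the nearest libraries, and PCBP1-OE replicate 3 was the lowest. Its log2 fold change of -0.15 (SE 0.069, 95% interval -0.30 to -0.003) did not pass (adjusted p = 0.167, edgeR), and it was -0.08 without PCBP1-OE replicate 3. C1r and C1s lie next to each other in the RefSeq assembly GRCr8. For each 100 C1r counts the controls held 33.8, 36.4 and 36.8 C1s counts and the PCBP1-OE libraries 36.4, 38.1 and 33.1, so the balance of these partners overlapped between groups. Whether the changes of C1r and C1s differ was not tested.

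Promoter sequence from RefSeq (GRCr8) was matched for 4 of the 9 genes, C1r, C3, C5 and Cd55. The 250 bases before the start of C1r (chr4:159098763-159099012, plus strand) and of C3 (chr9:2201340-2201589, minus strand) are shown 5′ to 3′ because these are the called members with a sequence. Capitals mark the letters of the C/EBP motif searched; C/EBP proteins are activators of acute-phase genes.

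C1r: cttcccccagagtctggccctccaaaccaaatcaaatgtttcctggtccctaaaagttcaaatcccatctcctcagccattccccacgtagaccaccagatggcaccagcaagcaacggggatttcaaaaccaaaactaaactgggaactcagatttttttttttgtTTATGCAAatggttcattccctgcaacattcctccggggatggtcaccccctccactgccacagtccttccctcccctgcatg

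C3: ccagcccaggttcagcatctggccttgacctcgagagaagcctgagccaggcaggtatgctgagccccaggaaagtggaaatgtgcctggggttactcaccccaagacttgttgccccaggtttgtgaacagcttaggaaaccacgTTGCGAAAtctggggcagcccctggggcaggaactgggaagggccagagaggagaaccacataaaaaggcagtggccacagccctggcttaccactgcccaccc

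A set of 5 motifs was searched on both strands: TTGCNNAA (C/EBP), GAAANNGAA (core of the interferon-stimulated response element), TTCNNNGAA (STAT), GGGANNNCC (NF-kB) and TGANTCA (AP-1). C1r held 1 C/EBP match, TTATGCAA on the opposite strand, with its first base 83 bases upstream of the start. C3 held 1, TTGCGAAA, 104 bases upstream. A C/EBP match was present in 9.22% of 33469 promoter windows of the same length. The other 4 motifs had no match in either window, and they were present in 8.12% (interferon-stimulated response element), 7.67% (STAT), 15.5% (NF-kB) and 6.34% (AP-1) of all windows. No matches overlapped in C1r or C3. Of the remaining members with a sequence, C5, which had no matching row, held no match. Cd55, which had few counts, held 1 NF-kB match, GGGAACGCC. These matches describe letters in short windows, and binding at them was not tested.

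C3, cleaved into the opsonin C3b and the peptide C3a, had the largest change among the called members. C3 (ENSRNOG00000046834, chromosome 9) was counted 200, 139 and 194 times in the control libraries, against 130, 109 and 115 times under PCBP1-OE. Scaled to CPM, the controls were at 10.2, 6.66 and 8.65, against 5.90, 5.40 and 5.87 for the PCBP1-OE libraries. The groups did not overlap, the PCBP1-OE libraries lay close together, and control replicate 2 was the control nearest to them. C3 fell by 32.6%, from 8.50 ± 1.77 to 5.72 ± 0.279 CPM (SD, n = 3 each), with a log2 fold change of -0.57 (SE 0.159, 95% interval -0.91 to -0.23, adjusted p = 0.0420 by the edgeR test). C3 no longer passed without control replicate 1 (log2 fold change -0.42, adjusted p = 0.180) or 2 (-0.71, 0.0664), without PCBP1-OE replicate 1 (0.130), 2 (0.140) or 3 (0.0913), or with limma-voom (0.0536), in a range of 0.00400 to 0.180 over 14 alternatives.

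Genes with a profile like that of C3 were looked for among 11518 genes with a mean of at least 1 CPM. The highest Pearson correlations with C3 over the 6 libraries were those of Ipo4, an importin (r = 0.986), Pa2g4, a growth-related RNA-binding protein (r = 0.985), and Ccdc92 (r = 0.979). Ipo4 was at 112.3, 101.6 and 107.8 CPM in controls and 100.8, 99.97 and 100.1 CPM in PCBP1-OE. Control replicate 1 was the highest library and control replicate 2 the lowest control in C3 and in these 3 genes. This shared order follows from choosing them by correlation with C3 over the same libraries. The points share libraries and scaling, and with 6 points among so many genes the values are a description.

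Cfb and C5 stand for the alternative and terminal steps. Cfb (ENSRNOG00000000419, chromosome 20), the protease of the alternative C3 convertase, was counted 15, 12 and 32 times in the control libraries, against 18, 11 and 17 times under PCBP1-OE. As CPM the controls were at 0.765, 0.575 and 1.43 and the PCBP1-OE libraries at 0.817, 0.545 and 0.868. The groups overlapped, and control replicate 3 was above the other 5 libraries. The log2 fold change of -0.33 (SE 0.387, 95% interval -1.16 to 0.51, adjusted p = 0.624, edgeR) was 0.16 without control replicate 3, so its direction rests on that library. For C5, the table held Hc (ENSRNOG00000018899), a RefSeq synonym of C5, with 0, 1 and 0 counts in control libraries, against 0, 2 and 0 under PCBP1-OE, too few for a test. Another row, RGD1308742 (ENSRNOG00000022033), described as similar to a C5 precursor, had 1, 0 and 2 counts in control libraries, against 2, 0 and 1 under PCBP1-OE.

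Among the inhibitors, Clu was measured at depth and the others were near the floor. Clu encodes clusterin, a secreted chaperone that blocks the assembly of the membrane attack complex. Clu (ENSRNOG00000016460, chromosome 15) was counted 1060, 1171 and 1132 times in the control libraries, against 994, 899 and 879 times under PCBP1-OE. Scaled to CPM, the controls were at 54.1, 56.1 and 50.5, against 45.1, 44.6 and 44.9 for the PCBP1-OE libraries. The groups did not overlap, and the PCBP1-OE libraries were within 0.55 CPM of each other. Clu fell by 16.2%, from 53.5 ± 2.85 to 44.9 ± 0.276 CPM (SD, n = 3 each), or by a log2 fold change of -0.26 (SE 0.056, 95% interval -0.38 to -0.13, adjusted p = 0.0190 by the edgeR test). Clu no longer passed without control replicate 1 (0.0630) or 2 (0.105) or without PCBP1-OE replicate 1 (0.0720) or 2 (0.0771), in a range of 0.000942 to 0.114 over 14 alternatives.

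Serping1 (ENSRNOG00000007457, chromosome 3) encodes the C1 inhibitor, the serpin that inactivates C1r and C1s. It had 1 count in control replicate 3 and 0 counts in the other 5 libraries. Cd55 (ENSRNOG00000003927, chromosome 13), the decay-accelerating factor that splits C3 convertases, had 2 counts in control replicate 1 and 0 counts elsewhere. Cd59 (ENSRNOG00000042821, chromosome 3), which blocks C9 from closing the membrane pore, was counted 2, 1 and 1 times in the control libraries, against 4, 0 and 3 times under PCBP1-OE. A count of 0 allows up to 3 counts, or 0.134 to 0.153 CPM depending on the library, which covers counting error only. So these 3 inhibitors were at or near the limit of detection in both groups, and a change in them was not detectable at this depth.

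The wider pathway was followed with 47 further complement genes, of which 39 symbols were found in 41 rows, C2 and C4a having 2 rows each. A test was possible for 16, of which 8 had a higher and 8 a lower value in PCBP1-OE. None was called by the edgeR test, beside 9.45% of all tested genes, so that 0 of 16 is no result about this list. An unadjusted p under 0.05 was found for 2, a share not counted over all tested genes. DESeq2 called 0 of the list, beside 13.3% of all genes it tested. By limma-voom and edgeR's exact test 1 each was called, beside 9.48% and 12.6% of all tested genes. Their median log2 fold change was -0.03. The remaining 25 rows, among them the C1q chains C1qa and C1qb, factor D (Cfd), both C4a rows, C4b and the terminal components C7, C8a and C9, were at 11 counts or fewer in every library. C4a and C4b are near-identical copies, and reads that match both could be missing because only uniquely mapped reads were counted. C2 lies beside Cfb on chromosome 20.

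Of the membrane regulators in this wider list, Cr1l and Susd4 had the most counts. Cr1l, also named Crry, is the rodent receptor-like regulator that acts on C3 and C4 fragments on the cell surface. It had 66.2, 63.9 and 63.0 CPM in controls and 56.5, 57.9 and 62.8 CPM in PCBP1-OE, which did not overlap by a narrow margin. Its log2 fold change was -0.12 (SE 0.054, 95% interval -0.24 to -0.009, adjusted p = 0.147, edgeR). Susd4, a membrane protein with complement control repeats, was at 30.6, 30.8 and 30.3 CPM in controls and 25.2, 26.4 and 26.9 CPM in PCBP1-OE. The groups did not overlap, and the log2 fold change of -0.23 (SE 0.067) missed the threshold (adjusted p = 0.0509, edgeR), with 0.0321 without control replicate 3 and a range of 0.0321 to 0.193 over 14 alternatives.

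The other pathway genes named here were not called. C1qbp, a mitochondrial protein that also binds the globular heads of C1q, had 237.2 ± 12 CPM in controls and 223.7 ± 9.96 CPM in PCBP1-OE (SD, n = 3 each; log2 fold change -0.08, adjusted p = 0.297, edgeR). Cfp, properdin, which stabilises the alternative convertase, had 7.75 ± 1.85 and 6.95 ± 0.640 CPM (SD, n = 3 each; log2 fold change -0.15, adjusted p = 0.604, edgeR). C1rl, a C1r-like protease gene beside C1r, had 3.01 ± 0.344 and 3.55 ± 0.212 CPM (SD, n = 3 each; log2 fold change 0.24, adjusted p = 0.399, edgeR), so its value leaned the other way from that of C1r. Itgb2, the beta chain shared by complement receptors 3 and 4, had 2.96, 2.92 and 2.90 CPM in controls, against 3.31, 3.62 and 3.57 CPM in PCBP1-OE (log2 fold change 0.26, adjusted p = 0.338, edgeR). Itgb2 was the 1 tested pathway gene of 16 with all PCBP1-OE libraries above the controls, a share that was not counted over all tested genes. Cr1l and Susd4 were the 2 of 16 with all below, as were 16.5% of all tested genes, so that count is no result about the list. The count above has no such comparison, and no reading is drawn from it.

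**Figure D2:**
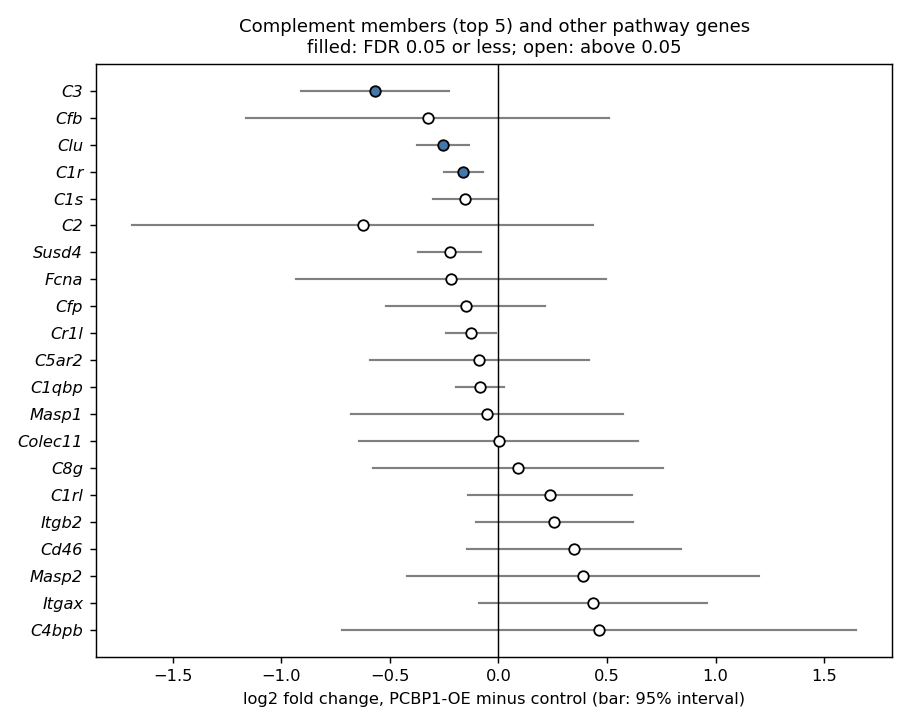
Log2 fold change of PCBP1-OE minus control (horizontal axis) with its 95% interval (grey bar) for the 5 tested members, at the top, and 16 other complement genes. Filled points have an FDR of 0.05 or less: C3 at -0.57, Clu at -0.26 and C1r at -0.16; the open points of the other genes lie on both sides of 0.

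Marker lists of other cell types were compared as summed levels. The 4 fibroblast genes found summed to 254 to 256 CPM in controls and 230 to 240 CPM in PCBP1-OE. That sum is mostly Pdgfra (log2 fold change -0.14, adjusted p = 0.0644, edgeR), while Pdgfrb and Col1a1 had values of 0.06 and 0.10 and Dcn was at 0 to 5 counts. The 5 leukocyte genes found summed to 7.50 to 8.82 and 6.79 to 7.45 CPM. Of these, Cd68 had a log2 fold change of -0.36, Cd3e of -0.07 and Lyz2 of 0.12, and Ptprc and Csf1r were at 4 counts or fewer in every library. None of these markers was called by the edgeR test, and 1 had an unadjusted p under 0.05, Pdgfra. Both sums did not overlap between groups, each through 1 gene, Pdgfra or Cd68, and neither list fell as a whole. The part of either gene's cell type in the results for C3, Clu and C1r was not tested. The 5 hepatocyte genes summed to 10.5 to 15 and 10.5 to 13 CPM and the 7 chromaffin genes to 8.72 to 9.92 and 8.71 to 10.3 CPM, which overlapped. In bulk RNA, fewer cells of a type and less RNA per cell cannot be told apart.

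Transcription of complement genes is known to respond to interferon through STAT and IRF factors, to interleukin-6 through its receptor subunit Il6st and C/EBP factors, and to NF-kB. A list of 20 such regulators had 18 tested genes. Of these, 3 were called higher, where 4.45% of all tested genes were, and 3 were called lower, where 5% were. The median log2 fold change of the 18 was 0.12. Irf9, the DNA-binding partner in the factor complex of type I interferon signalling, was higher. Irf9 was at 23.7 ± 1.27 CPM in controls and 34.4 ± 4.76 CPM in PCBP1-OE (SD, n = 3 each; log2 fold change 0.53, SE 0.095, adjusted p = 0.00978, edgeR). No PCBP1-OE library overlapped a control, and Irf9 did not pass without control replicate 2 (0.0692) or PCBP1-OE replicate 2 (0.0551).

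Il6st, the shared signalling subunit of interleukin-6-type receptors, had 28.6, 24.8 and 36.6 CPM in controls and 46.8, 51.1 and 40.6 CPM in PCBP1-OE. The groups did not overlap, with a log2 fold change of 0.62 (SE 0.118, adjusted p = 0.0120, edgeR), which was not called without control replicate 1 (0.0538) or 2 (0.0706) or PCBP1-OE replicate 1 (0.0601) or 2 (0.0624). Cebpd, the C/EBP factor of the acute-phase response, was lower, with 32.2, 38.9 and 31.5 CPM in controls and 24.8, 27.8 and 29.7 CPM in PCBP1-OE. The log2 fold change of -0.32 (SE 0.092, adjusted p = 0.0477, edgeR) passed in 1 of 6 fits with a library left out, the one without control replicate 3 (0.00818), and it did not pass with upper-quartile scaling (0.0580), in a range of 0.000893 to 0.227 over 14 alternatives. Cebpb, its relative, did not pass (log2 fold change 0.11, adjusted p = 0.302, edgeR).

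The receptors Tnfrsf1a and Ifngr1, for tumor necrosis factor and interferon gamma, were also called lower. Tnfrsf1a was at 75.6 ± 4.04 CPM in controls and 62.6 ± 0.895 CPM in PCBP1-OE (SD, n = 3 each; log2 fold change -0.27, adjusted p = 0.0111, edgeR), and it was not called without control replicate 2 (0.0692) or PCBP1-OE replicate 2 (0.0512). Ifngr1 was at 76.7 ± 0.744 and 68.9 ± 1.81 CPM (SD, n = 3 each; log2 fold change -0.16, adjusted p = 0.0496, edgeR), and it passed in 2 of 14 alternatives, edgeR's exact test (0.0372) and the fit without control replicate 3 (0.0433). The NF-kB subunit genes Rela, Nfkb1, Nfkb2 and Relb were not called, with log2 fold changes of 0.02, 0.11, -0.04 and 0.04.

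Acute-phase genes, which liver secretes together with complement, were counted beside them. Of 19 listed genes 9 were tested, and 2 were called, 1 higher and 1 lower, beside 4.45% and 5% of all tested genes. Lcn2, an iron-siderophore binding lipocalin, was at 9.89, 10.4 and 10.1 CPM in controls, against 4.95, 5.15 and 5.05 CPM in PCBP1-OE, with a log2 fold change of -1.01 (SE 0.120, adjusted p = 0.00131, edgeR) that passed in all 14 alternatives. Saa4, a constitutive serum amyloid A apolipoprotein, was at 26.3, 28.0 and 29.9 CPM in controls and 37.7, 34.5 and 32.8 CPM in PCBP1-OE. Neither gene overlapped between groups, and Saa4 had a log2 fold change of 0.32 (SE 0.075, adjusted p = 0.0243, edgeR). Saa4 did not pass without control replicate 1 (0.0931) or 2 (0.113) or PCBP1-OE replicate 1 (0.130) or 2 (0.0846). The median log2 fold change of the 9 genes was -0.09.

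**Figure D3:**
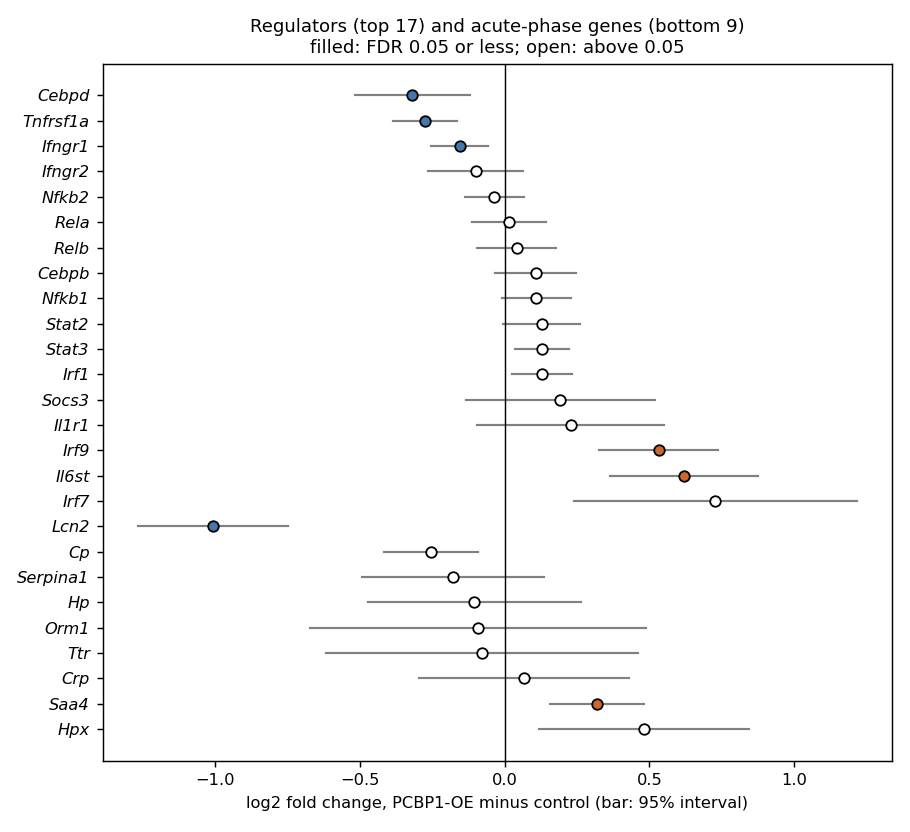
Log2 fold change of PCBP1-OE minus control (horizontal axis) with its 95% interval (grey bar) for 17 of the 18 tested regulators of complement transcription, at the top, and 9 acute-phase genes. Filled points have an FDR of 0.05 or less, with Cebpd, Tnfrsf1a, Ifngr1 and Lcn2 to the left of 0 and Irf9, Il6st and Saa4 to the right.

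The values of the 5 tested members were set side by side over the edgeR fit and its alternatives, 14 for each gene but Cfb, which had 13 because the filter of 1 CPM in at least 3 libraries left it out. C1r, C1s, C3 and Clu were lower in PCBP1-OE in all of their fits, at -0.18 to -0.14, -0.19 to -0.08, -0.71 to -0.42 and -0.30 to -0.22 on the log2 scale. Cfb ranged from -0.57 to 0.16. The share of all tested genes called moved with the same omissions, from 0.375% without control replicate 2 to 22.3% without control replicate 3.

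**Figure D4:**
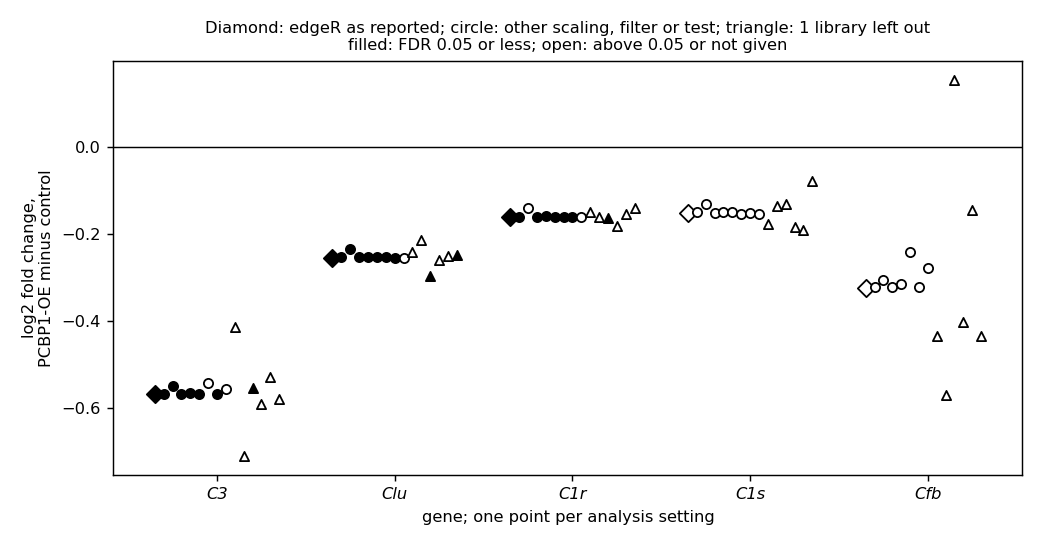
Log2 fold change of PCBP1-OE minus control (vertical axis) of the 5 tested members under the edgeR fit (diamond), other scaling, filters, tests or a replicate block (circles) and with 1 library left out (triangles). Filled points have an FDR of 0.05 or less; C3, Clu, C1r and C1s lie below 0 throughout, and 1 Cfb triangle, without control replicate 3, lies above it at 0.16.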

How the data were processed

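The authors deposited 1 table of unnormalized gene counts for 6 libraries. Per the study's methods, FASTX-Toolkit trimmed the reads, TopHat2 aligned them to Rnor_6.0 with up to 4 mismatches, and uniquely mapped reads were counted; the submitters' processing notes name GRCh38 as build, while the rows are rat genes. The labels and the methods name different stranded kits. How the counter treated strand, which counter it was and which annotation it used are not given in the sources used, so neighbouring or overlapping genes (C2 and Cfb, C1rl and C1r) and near-identical copies (C4a, C4b) are uncertain. Each column was matched to its library by title.

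All rows were fitted together with edgeR 4.0.16 (R 4.3.3; filterByExpr, minimum count 10 and minimum total 15; TMM; quasi-likelihood test), and p-values were adjusted by Benjamini-Hochberg over 12624 tested genes; 7985 rows were left out for low counts. SEs are the log2 fold change over the root of F. Depth was 19730209 to 22315623 counts a library. Replicates differed by more than sampling noise (chi-square per gene 5.85 to 17.2); the labels do not say that they came from separate cultures, so p-values measure the spread between these libraries.

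The members and lists were chosen with earlier results of these data known. Named are all members, other pathway genes called or among the 5 with the highest mean CPM, called regulators and acute-phase genes, and the 3 genes most like C3, except that some genes of the lists are counted but not reported by name; others named beside a count or as cell markers were chosen after their values were seen. As alternatives, scaling was by RLE or upper quartiles, the filter was dropped or set to 1 CPM in at least 3 libraries, and the test was DESeq2 1.42.0, limma-voom (limma 3.58.1), edgeR's exact test or a fit with a replicate block; each library was also left out in turn. The code was tested on simulated counts. Motifs were searched in RefSeq promoters (GRCr8).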

Additional observations from a re-analysis of the deposited data

How the results depend on the processing

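The number of members called, 3 in the edgeR fit, was 2 or 3 under the other scalings, filters and tests. It was 0 with the replicate block, and 0 to 3 with 1 library left out: 0 without control replicate 1 or 2 or PCBP1-OE replicate 1 or 2, 1 without PCBP1-OE replicate 3 (Clu) and 3 without control replicate 3. Called regulators, 6 in the edgeR fit, were 0 with the replicate block and 1 to 8 with 1 library left out, and called acute-phase genes, 2 in the edgeR fit, were 1 and 1 to 3. Called pathway genes, 0 in the edgeR fit, were 1 (Susd4) with no filter, limma-voom or the exact test, and 0 to 1 with 1 library left out. The log2 fold change of Cfb ran from -0.57 to 0.16 with 1 library left out, the latter without control replicate 3, and DESeq2 gave Cfb no adjusted p. Replicate numbers did not pair the libraries: same-numbered libraries had correlations of deviations of -0.0912, -0.0669 and -0.0796, and the replicate block left 16 genes called of 12624. Fits without 1 library have fewer samples, and all-gene calls ran from 48 to 2860 in them. Other causes were not tested. Serping1, Cd55, Cd59 and Hc were at 4 counts or fewer, too few for a test at this depth, and why they were low was not tested.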
